A study of Drosophila melanogaster with 2 samples.

Results

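The regions described here are 518 places in Drosophila intergenic DNA, near but not at a gene start, that chromatin immunoprecipitation and sequencing (ChIP-seq) assigned to the transcription factor Arrowhead (Awh). They were taken from the 4781 regions of the strict list built from both replicates on chromosomes 2L, 2R, 3L, 3R, 4 and X. A region was kept when its summit, the position of strongest enrichment, lay 501 to 5000 bp from the nearest start of a protein-coding transcript and inside no protein-coding gene. The rule chose members by the position of the summit and used signal only to pick the summit of merged peaks. The study had 1 group of 2 biological replicates, recorded as separate biosamples, of whole embryos of 0 to 24 h from flies with a transgene for Awh fused to eGFP (enhanced green fluorescent protein). The chromatin, sheared by sonication to 200 to 800 bp, was recovered with an antibody against GFP per one label, while another label field names Awh as the antibody target. The labels do not say where the transgene sits or which cells produced the fusion protein, and whole embryos mix all tissues and stages of that day. No control library was analysed here, so no background could be set beside a signal and no groups could be compared. Replicate 1's own list alone gave 303 such regions and replicate 2's own list alone 371.

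Awh is a LIM-homeodomain protein: its LIM domains bind partner proteins and its homeodomain contacts DNA, where proteins of this family commonly read TAATTA or close variants. In the fly it is known for the abdominal histoblasts and the imaginal ring of the salivary gland, groups of cells set aside in the embryo to build adult tissue. Intergenic DNA within a few kilobases of a start often holds enhancers, which raise transcription of a gene from a distance, but position alone does not make a region an enhancer of its nearest gene. Nearest genes are therefore given here as positions, with no claim that they respond to Awh.

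The sequences below show what lay under the summits. Each is 61 bp of the plus strand of Release 6 of the genome (dm6), read 5′ to 3′ and centred on the summit, with TAATTA in capitals. The first 3 are the strongest members off the chromosome arm whose sequence is not printed here, and none of them has TAATTA in the stretch shown.
hll, chr2L:14024061-14024121: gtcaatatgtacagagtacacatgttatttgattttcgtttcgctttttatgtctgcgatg
tara, chr3R:16222451-16222511: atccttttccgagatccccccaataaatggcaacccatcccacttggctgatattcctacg
CG31668, chr2L:2202376-2202436: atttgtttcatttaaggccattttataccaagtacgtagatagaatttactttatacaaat
The next 5 are the strongest members, off the same arm, with TAATTA within 20 bp of the summit. In by, Eaf6 and CG12507 the site covers the summit or lies 1 bp from it.
by, chr3R:9534312-9534372: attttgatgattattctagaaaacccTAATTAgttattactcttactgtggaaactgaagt
CG43245, chr3L:10769751-10769811: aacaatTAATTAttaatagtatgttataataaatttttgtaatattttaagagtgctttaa
CG7573, chr3L:11308578-11308638: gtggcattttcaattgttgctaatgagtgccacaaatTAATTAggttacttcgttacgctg
Eaf6, chr3L:5611908-5611968: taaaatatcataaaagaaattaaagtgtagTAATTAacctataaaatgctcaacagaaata
CG12507, chrX:16263560-16263620: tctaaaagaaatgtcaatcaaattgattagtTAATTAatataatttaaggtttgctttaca
The last pair is the region nearest to Awh itself, with TAATTA over the summit, and the region nearest to Fie, the gene that follows Awh along the chromosome, with none.
Awh, chr3L:3843118-3843178: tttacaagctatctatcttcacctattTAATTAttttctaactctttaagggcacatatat
Fie, chr3L:3889929-3889989: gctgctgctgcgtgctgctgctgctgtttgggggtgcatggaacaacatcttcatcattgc

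The strongest members stood far above the rest and were found in both replicates, and the nearest genes were of many kinds. Signal is the value the authors' peak caller gave each peak, used here to describe and rank regions within a list, and a replicate's signal is that of the strongest peak overlapping the region in its own list of candidates. The region nearest to hll, a gene for an acyl-CoA synthetase of the bubblegum family, reached 1168 in the list from both replicates, 520 in replicate 1 and 656 in replicate 2. It lay 2910 bp upstream of hll and 8 bp from the start of the long noncoding RNA gene lncRNA:CR31840. The region 3170 bp upstream of tara, which encodes the SERTA-domain regulator Taranis, had 1023, with 524 and 498. The region 3760 bp downstream of the start of CG31668 had 931, with 480 and 453. These were the 3 members among the 20 strongest of all 4781 regions.

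The other named regions among the 20 strongest members lay near genes of chromatin, development and metabolism. The region nearest to Psc, a Polycomb group gene, had 348 in replicate 1 and 301 in replicate 2. At slbo, which encodes the C/EBP factor of migrating border cells, the values were 293 and 288, a nearly equal pair. At CycB, the gene for Cyclin B, they were 273 and 277. A region 575 bp from sp3, in the gap between the homeobox gene C15 and sp3, had 276 and 241. RasGAP1, a Ras GTPase-activating protein gene, had 236 and 245. Further down the order came regions at the forkhead genes slp2 (202 and 180) and foxo (187 and 163), and at the zinc-finger homeodomain gene zfh2 (144 and 236). Regions at jp (junctophilin, 184 and 235), DNAlig3 (a DNA ligase, 230 and 189), verm (a chitin deacetylase, 145 and 193) and Ugt37C1 (a UDP-glycosyltransferase, 134 and 227) were also in this set. The rest were nearest to CG10479, CG42808, CG43131, CG12643 and CG17896, with signals of 344 to 432. All 20 were in both replicates' own thresholded lists, and the ratio of replicate 1 to replicate 2 ran from 0.59 to 1.25. The signals of different lists are not known to share a scale, so such ratios are descriptive. Of the 20, 16 lay upstream of the nearest start and 3 had TAATTA within 100 bp of the summit.

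**Figure D1:**
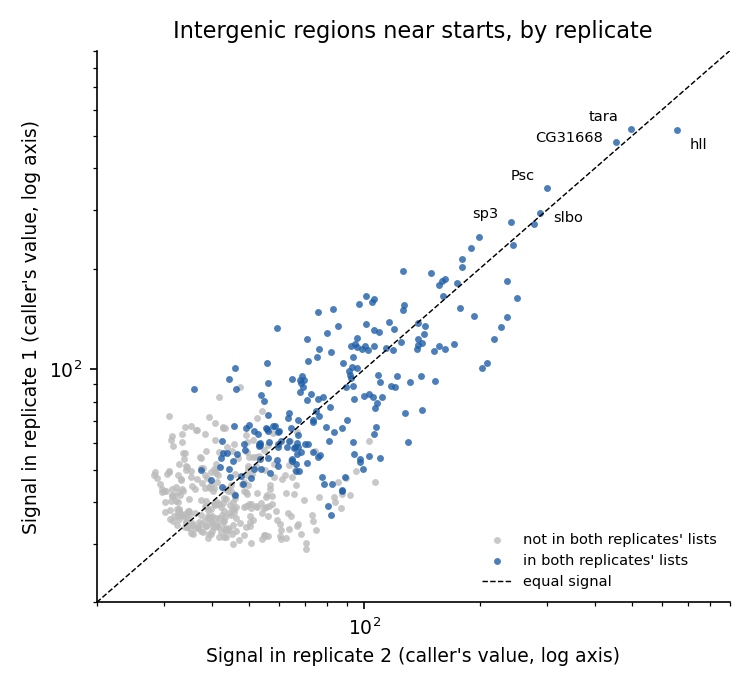
Signal of each of the 511 members with a candidate peak in both replicates, replicate 2 on the horizontal and replicate 1 on the vertical axis, both log scales, with the dashed line at equal signal. Regions in both replicates' own lists (blue) reach up to hll at 656 and 520, and the rest (grey) gather at low signals.

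Over all 518 members the signal had a median of 102, with quartiles of 80.5 and 143 and a range of 17.3 to 1168. The median over all 4781 regions was 105. It was 113 at the 1537 regions within 500 bp of a start, 102 at the 2208 regions inside genes, and 104 at the 518 intergenic regions beyond 5000 bp. The members' median was 0.951 times that of all regions with replicate 1's signals and 0.984 times with replicate 2's, so the members lay close to the general level in each replicate. The members with the lowest combined signals, CG33467 at 17.3, CASK at 23.2 and CAH7 at 26.3, had 31.3, 37.5 and 36.0 in replicate 1 and 62.6, 34.7 and 43.3 in replicate 2, higher than their combined values.

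The replicates had similar levels and differed in which weaker regions passed their thresholds. Of the 518 members, 214 (41.3%, 95% Wilson interval 37.2 to 45.6%) were in both replicates' own thresholded lists, beside 43.3% of all regions. Another 150 (29.0%) were in neither list and entered only through the list made from both replicates, beside 26.8% of all regions. Presence followed signal: 125 of the 130 strongest members (96.2%) were in both lists and 1 of the 130 weakest. The combined signal and both lists come from the same 2 libraries, so such a rise is partly built in. Over 511 members the log2 ratio (replicate 1 over replicate 2) was centred on a median of -0.03, with an SD of 0.49. Over all regions the median was 0.02 and the SD also 0.49. Of the 511 members, 25 differed by more than 2 times, a count not made over all regions. The most unequal were a region at CG6168 (28.9 and 70.3) and one at Alp6 (87.0 and 36.0). Across the 511 regions Spearman's rho between replicates was 0.609, and 0.654 across 4741 of all regions, a description over regions of the same 2 libraries. Replicate 1 had no candidate peak at 4 members and replicate 2 none at 3. Wilson intervals here count regions only and treat them as independent, and the read depth is unknown from the lists.

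Most members lay upstream of the start they were nearest to, and fewer were found per length of sequence at greater distance. Of 518 summits, 396 (76.4%, 72.6 to 79.9%) were upstream, beside 69.5% of all intergenic positions that meet the same rule on distance. Close to the start the upstream share was 94.3% (88.1 to 97.4%) at 501 to 1000 bp, where 88.2% of positions are upstream. It was 85.8% (79.3 to 90.5%) above that up to 2000 bp against 74.1% of positions, 68.6% (59.2 to 76.7%) in the next kilobase against 64.8%, 58.4% (48.1 to 68.1%) between 3000 and 4000 bp against 61.1%, and 64.8% (53.2 to 74.9%) in the last against 59.4%. The neighbouring genes faced away from each other at 217 members, ran in tandem at 230 and faced each other at 71. At the 518 intergenic regions beyond 5000 bp the counts were 130, 258 and 130. The layout around all intergenic positions that meet the distance rule was not counted, so these counts have no background of positions beside them.

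Per megabase of intergenic sequence the members numbered 46.3 at 501 to 1000 bp, 39.6 from there to 2000 bp, 33.2 and 33.3 in the following kilobases and 30.8 between 4000 and 5000 bp. Over the whole distance range there were 36.6 per Mb, close to the 35.7 regions per Mb of the 6 chromosomes as a whole. The median signal moved little with distance, 108 in the nearest bin and 94.9 in the farthest. The X held 60 members (11.6%, 9.11 to 14.6%), beside 15.6% of the intergenic positions. The 60 members on X had a median signal of 99.8 and the 458 on autosomes 103.

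**Figure D2:**
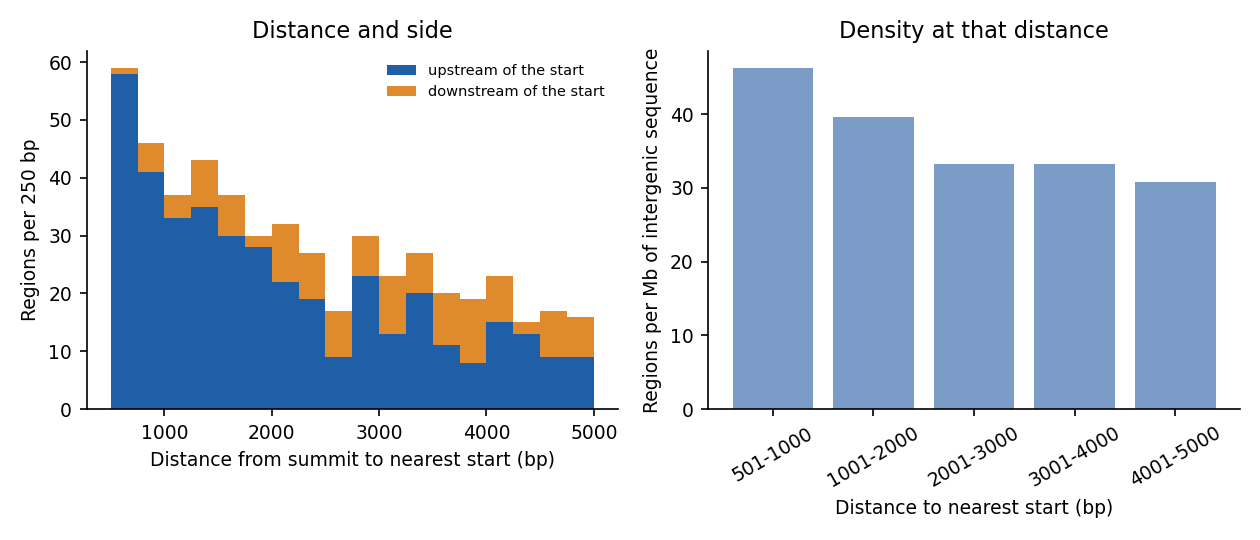
Left, number of members per 250 bp of distance from the summit to the nearest protein-coding start, stacked by side of the start. Right, members per Mb of intergenic sequence at each distance, falling from 46.3 at 501 to 1000 bp to 30.8 between 4000 and 5000 bp.

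For the limits of the distance rule, just inside 501 bp were regions at CG10479 (503 bp, signal 432), CG15172 (505 bp, 79.9) and cv-c (512 bp, 65.1), and just outside it mirr (500 bp, 87.8), CG6225 (497 bp, 135) and l(3)neo38 (497 bp, 86.7). Just inside 5000 bp were Rubicon (4975 bp, 84.3), CG13334 (4968 bp, 100) and CG12290 (4964 bp, 108), and just outside it Or65a (5012 bp, 69.3), CG13171 (5018 bp, 77.0) and mib1 (5087 bp, 71.7).

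Some regions far from a protein-coding start were at the start of a noncoding RNA. Counted here are starts of all annotated genes that are neither protein-coding nor transposable elements, whether or not they are RNA genes. Of the members, 62 (11.97%, 9.45 to 15.05%) lay within 500 bp of such a start, beside 4.69% of all regions and 6.33% of intergenic positions in the same distance range. The share was 7.14% (5.23 to 9.69%) among the intergenic regions beyond 5000 bp. The region nearest to hll, the strongest member, was one of them, as were those at Psc, 140 bp from lncRNA:CR44339, and slbo, 145 bp from lncRNA:CR44810. These 62 had a median signal of 109 and the other 456 had 101. Inside a noncoding gene lay 45 members (8.69%), beside 5.46% of all regions and 16.02% of the intergenic regions beyond 5000 bp. Of the 45, 41 were in genes of the ncRNA class, 2 in snRNA genes and 2 in snoRNA genes. Only 1 member lay inside an annotated transposable element.

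TAATTA was more frequent at the summits than beside them. It lay within 100 bp of the summit in 117 of 518 members (22.6%, 19.2 to 26.4%). A window of the same 201 bp centred 1000 bp away from the start held it in 68 (13.1%, 10.5 to 16.3%), and 15.5% of all 70418 such windows tiled over intergenic sequence of the same distance did. Only the summit window held it in 102 members and only the flank in 53. The share at the summit was 19.7% over all regions (13.4% in their flanks), 21.8% beyond 5000 bp, 20.02% inside genes and 17.7% within 500 bp of a start. Within 20 bp of the summit it was found in 50 members (9.65%, 7.40 to 12.5%) and in 7.26% of all regions.

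Other AT palindromes were also more frequent at the summits than beside them, with smaller ratios. No test was run on these shares. Each of 4 controls has the bases of TAATTA in another palindromic order and was counted on both strands, as were all sites. AATATT was at 22.6% of member summits and 18.0% of flanks, a ratio of 1.26. TTTAAA had 21.4% and 17.0%, also a ratio of 1.26. AAATTT had 20.5% and 15.8%, and TTATAA 14.5% and 11.2%, each a ratio of 1.29. The ratio for TAATTA was 1.72. In the tiled windows of intergenic sequence AATATT was at 19.4%, TTTAAA at 21.3%, AAATTT at 21.99% and TTATAA at 11.7%, so against that background TTTAAA and AAATTT were not in excess at the summits. Over all regions TAATTA had a ratio of 1.47 and AATATT 1.46, and at the regions within 500 bp of a start TAATTA had 1.66 while TTTAAA had 1.79. The summit windows of the members were 40.0% GC and their flanks 41.8%, and the part of base composition in these shares was not tested. TAATTA did not follow strength in order: in 4 groups of 129 or 130 members, from the weakest to the strongest, its share was 16.9%, 30.2%, 17.1% and 26.2%.

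**Figure D3:**
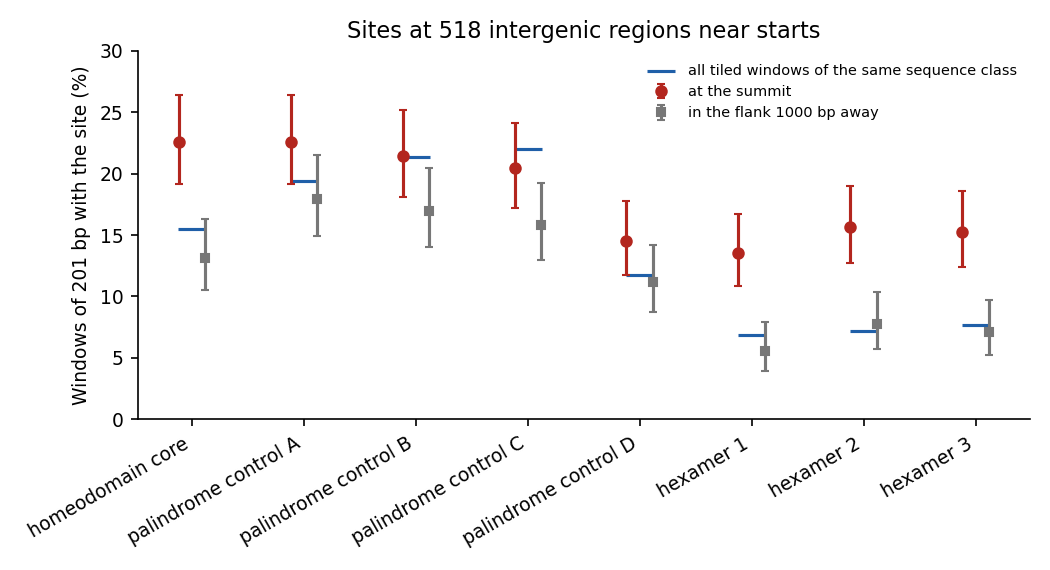
Percent of 201 bp windows with each site, at the summits of the 518 members (red circles), in their flanks 1000 bp away (grey squares), both with 95% Wilson intervals, and in all tiled windows of the same kind of sequence (blue bars). Homeodomain core is TAATTA, palindrome controls A to D are the 4 palindromes in the order of the text, and hexamers 1 to 3 are in the order of the text, all at about 2 times their flank or more.

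A set of 3 hexamers, none of which holds the TAAT of the homeodomain core, lay mostly beside the summits, not under them. They were picked from earlier results over all regions of these data, which include the members, so their excess is a description. In the order given below, they were within 100 bp of 16.1%, 14.9% and 13.9% of the summits of all regions. The flanks of all regions had 7.40%, 6.36% and 7.17%. Each summit share of all regions lay inside the Wilson interval of the members' share, so the excess was not particular to the members. ACAGTG, hexamer 1, was within 100 bp of 13.5% of member summits against 5.60% of flanks and 6.90% of tiled windows. ACACTG, hexamer 2, was at 15.6%, with 7.72% of flanks and 7.23% of tiled windows. AGTGTA, hexamer 3, was at 15.3%, with 7.14% and 7.65%. They overlap when read on both strands: the last 5 bases of ACACTG are the first of the reverse complement of ACAGTG, and AGTGTA shares 5 bases with the reverse complement of ACACTG.

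Each hexamer was more often on one side of the summit than on the other. The zone of 30 to 110 bp was chosen after the profile was seen. With each site read along its own letters, hexamer 1 lay 30 to 110 bp before the summit 47 times and the same distance behind it 22 times. Hexamer 2 lay before it 66 times and behind it 21 times, and hexamer 3 behind it 79 times and before it 19 times. At least 1 of the 3 was on its usual side in 125 members (24.1%, 20.6 to 28.0%), beside 24.1% of all regions, and 20 members (3.86%) had them on both flanks of the summit, beside 4.33% of all regions. In the 4 signal groups, from the weakest to the strongest, hexamer 1 was at 19, 16, 12 and 23 members and hexamer 2 at 15, 20, 22 and 24. Hexamer 3 was at 13 of the 130 weakest members, at 17 and 21 of 129 in the groups between, and at 28 of the 130 strongest (21.5%, 15.3 to 29.4%). Relative to the nearest gene hexamer 1 ran along the gene's strand 35 times and against it 46 times, hexamer 2 45 and 46 times, and hexamer 3 46 and 51 times.

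**Figure D4:**
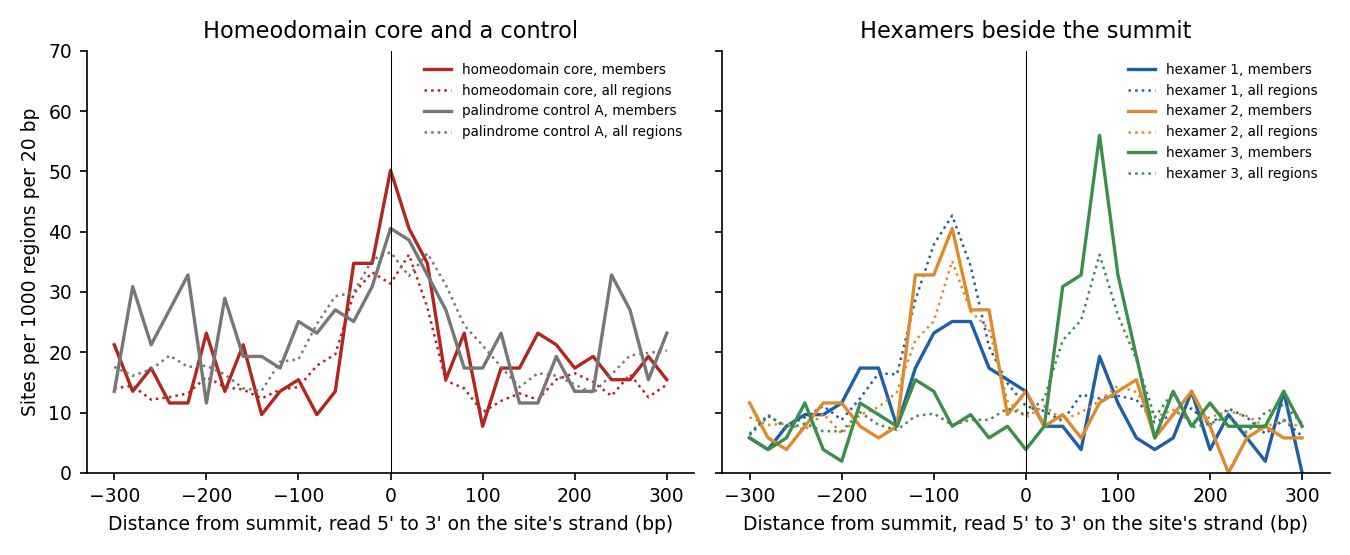
Sites per 1000 regions in bins of 20 bp by distance from the summit, with negative distances before the summit on the site's own strand, for the 518 members (solid) and all 4781 regions (dotted). In the members the homeodomain core and a control palindrome (left) are highest in the bin at the summit. Both read the same on either strand, so their distances run along the plus strand. Over all regions the core has 33.3 at -20 bp, 31.4 at the summit and 36.2 at 20 bp. Hexamers 1 and 2 (right) are highest before the summit and hexamer 3 behind it.

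The arrangement can be read in the strongest members with hexamers on both flanks, chosen after this order was seen. Each sequence is 221 bp of the plus strand centred on the summit, with the 3 hexamers on either strand in capitals. The capitals frame a stretch of over 100 bp with the summit in its middle in tara and CG31668. The region at slp2 has them on both flanks and also inside.
tara, chr3R:16222371-16222591: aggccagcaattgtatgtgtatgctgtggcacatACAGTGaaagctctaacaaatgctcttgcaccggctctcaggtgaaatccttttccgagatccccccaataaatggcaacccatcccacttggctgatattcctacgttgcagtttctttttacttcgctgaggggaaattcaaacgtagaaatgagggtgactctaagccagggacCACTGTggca
CG31668, chr2L:2202296-2202516: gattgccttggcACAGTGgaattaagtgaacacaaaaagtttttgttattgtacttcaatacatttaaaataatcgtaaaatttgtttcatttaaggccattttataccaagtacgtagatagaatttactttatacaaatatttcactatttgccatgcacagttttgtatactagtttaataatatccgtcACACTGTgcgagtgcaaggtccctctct
slp2, chr2L:3832436-3832656: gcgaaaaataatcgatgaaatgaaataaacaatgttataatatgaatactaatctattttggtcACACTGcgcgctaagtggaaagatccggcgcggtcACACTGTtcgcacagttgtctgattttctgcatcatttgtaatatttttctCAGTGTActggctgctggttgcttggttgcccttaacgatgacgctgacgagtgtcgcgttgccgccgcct

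The 518 members had 426 nearest genes, 3.05% of 13945 protein-coding genes. With replicate 1's own list alone there were 266 and with replicate 2's alone 312. Of the 426 genes, 359 had 1 member, 47 had 2, 15 had 3 and 5 had 4. The 5 were CG43131, ND-20L (a paralog of a mitochondrial complex I subunit), Act5C (a cytoplasmic actin), CG4218 and Ids (iduronate 2-sulfatase). The 4 regions upstream of Act5C had signals of 258, 247, 77.6 and 75.9, the first pair in both replicates' lists. At hll and tara, each with 3 members, 1 region had a far higher signal than the others: 1168 against 74.8 and 46.6 at hll, and 1023 against 107 and 88.1 at tara.

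The genes with 3 members were of several kinds. The regions upstream of chinmo, a BTB zinc-finger gene of neuronal timing, had signals of 244, 171 and 135, all in both lists. Those upstream of aop, the ETS repressor Yan, had 208, 117 and 94.5, also all in both lists. Regions at Pburs, a subunit of the hormone bursicon, had 343, 79.5 and 65.6, and those at scb, an integrin alpha subunit, 99.0, 81.1 and 50.8. The other genes with 3 members were CG42808, CG43245, CG6168, CG13898, CG8635, CG7573, Gr93a, Cpr35B and Cyt-c1L.

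**Figure D5:**
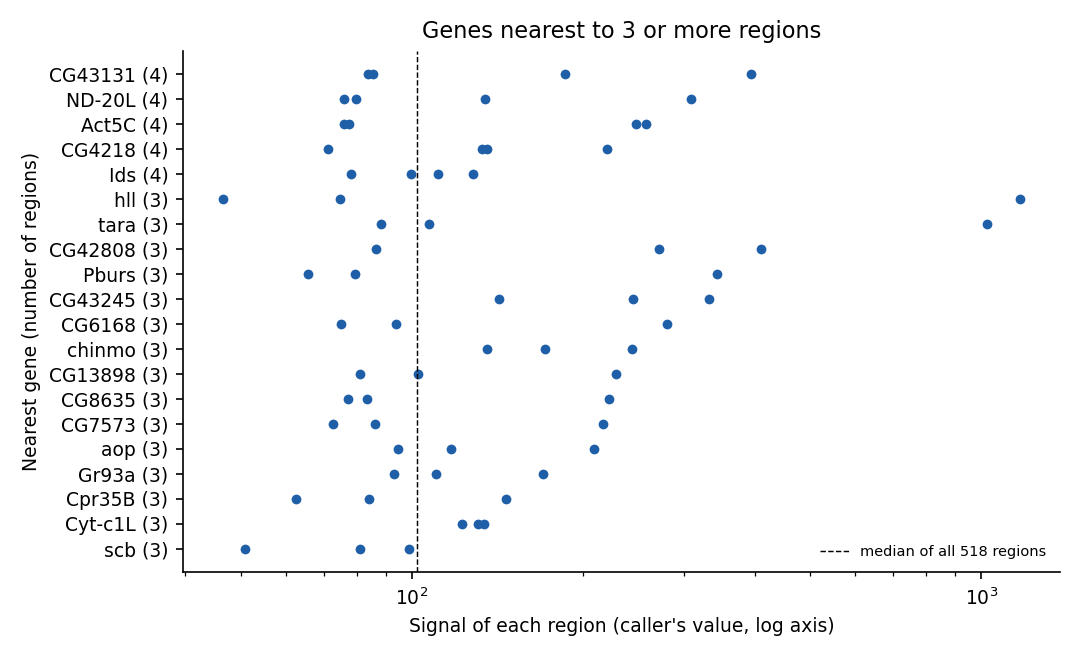
Signal (log axis) of every member at the 20 genes nearest to 3 or more, 1 row a gene with the number of its members in brackets, and the dashed line at the median of all 518. At hll and tara a single region stands near 1000 and the others lie near or below the median.

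Many nearest genes had no region at their own start. At 95 members (18.3%, 15.2 to 21.9%) the nearest gene also had a region within 500 bp of one of its starts, beside 17.0% of the intergenic regions beyond 5000 bp, 31.5% of those inside genes and 50.5% of all regions. The share over all regions includes the 1537 regions within 500 bp of a start, where it is 100% by definition. Counted over genes and not regions, 13.6% of all protein-coding genes had such a region. Those 95 had a median signal of 105 and the other 423 had 102. At 123 members (23.7%) the nearest gene held a region inside its body, beside 49.97% of all regions and 22.6% of the intergenic regions beyond 5000 bp. Regions inside genes, at 80.3%, could count themselves here, which raises the share over all regions by construction. Of the members, 181 (34.9%) had another region within 2000 bp, beside 31.9% of all regions.

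Genes of embryonic patterning and signalling were among the nearest, mostly at modest signals. Of 33 listed signalling genes 7 had a member, with a median signal of 96.8, against 3.05% of all genes and a median of 102 over all members. They were E(spl)mbeta-HLH (a Notch target, 144), ptc (the Hedgehog receptor, 108), pnt (an ETS activator, 101), Ser (a Notch ligand, 96.8), dpp (a BMP ligand, 84.0), fz (a Wnt receptor, 79.4) and ths (an FGF ligand, 61.8). Of 15 gap and head genes 3 had one, slp2 at 380, the homeobox gene ems at 84.8 and the zinc-finger gene btd at 66.1. Of 16 pair-rule and segment polarity genes 3 had one, inv at 115, sob at 113 and ptc. Of the 33 signalling genes, 26 were nearest to some region of the whole list. So were 7 of the 15 gap and head genes and 9 of the 16 pair-rule and segment polarity genes. The same count over all protein-coding genes was not made, so these and the like counts below have no general level beside them. The lists were not matched for the length of intergenic sequence around their genes, which was not tested.

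In the other lists of regulators 1 to 3 genes had a member, shares of 5.56% to 17.6% of each list beside 3.05% of all genes. Of 27 neuroblast and proneural genes 3 had one, zfh2 at 378, the Snail-family gene wor at 101 and zfh1 at 72.0. Of 17 mesoderm and muscle genes 3 had one, the homeobox gene lbl at 124, the forkhead gene bin at 89.4 and zfh1. Of 10 Hox genes and cofactors hth alone had one, at 88.3, and of 18 leg, antenna and wing genes btd alone. Of 14 salivary gland and tube genes vvl, a POU factor, had one at 113, and of 14 ecdysone response genes ImpL1 had one at 83.2. In the whole list 10 of 27 neuroblast, 6 of 17 mesoderm and 7 of 10 Hox genes were nearest to some region. So were 10 of 18 leg, antenna and wing genes, 8 of 14 salivary gland and 10 of 14 ecdysone genes.

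Among 9 LIM-homeodomain and LIM cofactor genes 4 were nearest to some region of the whole list, and only Awh had a member. Its region lay 3058 bp upstream of the Awh start, and its signal was 84.7, from 43.0 and 48.4 in replicates 1 and 2. It was in replicate 1's own list only. As printed with the first sequences, TAATTA lies over this summit. Whether the transgene carries a copy of this stretch is not given in the labels. The region nearest to Fie lay 2615 bp upstream of that gene with 86.5 (44.1 and 39.6) and was in neither replicate's own list. Both signals were below the median of the members.

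Chemosensory genes had a share near the 3.05% of all protein-coding genes. That of cuticle genes was close to the lowest among the regulator lists, 5.56% (1 of 18 leg, antenna and wing genes). Of 128 cuticle protein genes 7 had a member (5.47%), with 9 regions in all and a median of 112. Cpr76Ba had the strongest at 210, and Cpr35B had 3 regions, at 147, 84.1 and 62.6. Of 230 chemosensory receptor and odorant-binding genes 8 had one (3.48%), led by Obp83cd at 254, the gustatory receptor Gr89a at 173 and Gr93a at 170. In the whole list 12 of the 128 cuticle and 20 of the 230 chemosensory genes were nearest to some region. Of 93 cytoplasmic ribosomal protein genes RpS23 had one (1.08%), at 110, while 55 of the 93 were nearest to some region of the whole list. Of 73 mitochondrial ribosomal protein genes 0 had a member and 8 were nearest to some region. Of the listed genes other than Awh with TAATTA within 20 bp of the summit, the strongest off the arm not printed follow. They are 61 bp of the plus strand with TAATTA in capitals, and the region at Or65a has it at 2 places.
Gr89a, chr3R:16497586-16497646: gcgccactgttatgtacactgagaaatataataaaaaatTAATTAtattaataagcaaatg
Or65a, chr3L:6316166-6316226: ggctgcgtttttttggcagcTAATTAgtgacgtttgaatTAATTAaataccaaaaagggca
Cpr78Ca, chr3L:21291199-21291259: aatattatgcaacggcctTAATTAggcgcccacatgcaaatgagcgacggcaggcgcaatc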

How the data were processed

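ChIP-seq peak lists of 2 biological replicates of 1 group were used. The authors deposited, per the labels on the dm6 build, a ranked and a thresholded list per replicate and a conservative and an optimal list from both replicates. Each peak carries a signal from the authors' peak caller, unscaled here, and a deposited score, a whole number up to 1000 that was at least 830 in every thresholded list. The aligner and the caller were not given in the sources used here, and the lists hold no read totals, so depth is unknown. Replicates were grouped by their labels.

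Of 5026 conservative peaks 5024 lay on the 6 chromosomes and were merged where overlapping into 4781 regions with the strongest peak's summit. Starts and genes came from Ensembl release 115 (BDGP 6.54) and sequence from RefSeq Release 6, whose chromosome lengths hold all peaks. Replicate signals were read with an overlap of at least 1 bp. Sites, 22 in all, were searched on both strands within 100 bp of the summit, in a flank 1000 bp away on the side away from the start, and in 201 bp windows tiled over intergenic sequence at 501 to 5000 bp. Shares have 95% Wilson intervals. With 1 group no test was run and no p-value given. Site counting was checked on simulated data. Python 3.11.15, numpy 2.4.6, pandas 2.3.3, scipy 1.17.1 and matplotlib 3.10.9 were used.

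Named genes are those nearest to the 20 strongest members or to 3 or more, those of 14 lists with a member, Awh and Fie, and the 3 members at each distance limit on either side, with the strongest with TAATTA within 20 bp for their sequence. CG33467, CASK, CAH7 and Alp6 were also singled out, for low or unequal signals, after their values were seen. The members and lists were chosen with earlier results of these data known. After values were seen, name patterns for the cuticle and chemosensory lists were narrowed, and the tiled windows, the zone of 30 to 110 bp for the hexamers and the limit of 20 bp for the listed sequences were added. 8 list entries matched no gene. Alternatives were the optimal list, each replicate's list alone, a higher signal limit, no merging, other distances, gene exclusion, overlap, windows and flanks.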

Additional observations from a re-analysis of the deposited data

How the results depend on the processing

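For 9 results 72 values were recomputed under 12 alternatives, and 50 stayed within the main value's interval, or for counts within 1.5 times. With only the regions at or above the median signal, 248 regions and 220 nearest genes remained, 77.4% were in both replicates' lists, the signal ratio to all regions was 0.941 and 9.27% had a promoter region at the nearest gene. This list holds fewer regions by construction. Promoter regions below the median were left out too, which lowers the last share by construction. With all promoter regions kept, that share was 19.4% and 19.2% of the 129 and 130 members in the upper signal groups. With a single replicate's list the number of regions was 303 to 371, of nearest genes 266 to 312, the share in both lists 57.7% to 70.0%, the signal ratio 0.926 to 1.01, the summit to flank ratio for TAATTA 1.41 to 1.51 and the share with a promoter region 13.2% to 13.5%. In a single replicate's list every region already counts as present in that replicate, and promoter regions come from the same shorter list. The share in both lists is thereby raised and the share with a promoter region lowered by construction. With the optimal list 35.3% of members were in both lists. Beyond 1000 bp, 71.9% lay upstream. Windows of 50 bp on either side of the summit hold fewer sites by construction: 16.6% had TAATTA, with a ratio to the flank of 2.26, and 5.985% had ACAGTG. Windows of 200 bp gave 34.0%, 1.30 and 20.9%. The causes of the other shifts were not tested. No paired analysis was possible because there is 1 group. The unknown read depth limits every statement on weak regions.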
